A study of Homo sapiens with 8 samples.

Results

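The desmosome genes were examined in KYSE850, an established human esophageal squamous cell carcinoma (ESCC) cell line, with and without knockdown of KHSRP, a protein that binds RNA and takes part in splicing, mRNA decay and miRNA maturation. The 10 genes were chosen by name: the desmosomal cadherins DSG2, DSG3, DSC2 and DSC3, the armadillo proteins JUP, PKP1, PKP2 and PKP3, the plakin DSP and the membrane protein PERP. They are 10 of 20249 genes named on the array, and every probe whose RefSeq accession belongs to 1 of them was taken, which gave 13 probes. Of these, 12 passed the detection filter and were tested, and each of the 10 genes had at least 1 tested probe.

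The study hybridised total RNA of KYSE850 cells to 8 one-colour Agilent whole-genome arrays, 4 from cells treated with a control siRNA and 4 from cells treated with siRNA against KHSRP, to look for pathways touched by the knockdown. All cells came from the same line and carried no other named alteration. Which KHSRP siRNA went onto which array is not given in the labels, nor is it given whether arrays of a group came from separate cultures, so p-values measure the spread between these arrays, which may be technical. Levels are log2 of the processed signal minus the 75th percentile of the same array, so that 0 is the brightness of that percentile, and they can be compared between arrays for 1 probe but not between probes.

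Desmosomes are the spot-like junctions that rivet neighbouring epithelial cells together. Desmogleins and desmocollins, both cadherins, meet their partners from the next cell outside the membrane. Inside, plakoglobin (JUP) and the plakophilins bind the cadherin tails and hand the load to desmoplakin (DSP), which anchors the keratin filaments. In stratified squamous epithelium such as the esophagus, DSG3 and DSC3 are typical of the basal and lower layers and PKP1 of the layers above them, whereas DSG2, DSC2 and PKP2 are also made by simple epithelia.

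The knockdown was visible in the targeted gene. KHSRP probe A_23_P16157 read 6.03, 5.81, 6.39 and 6.08 on control arrays 1 to 4 and 2.52, 2.58, 2.88 and 2.85 on KHSRP siRNA arrays 1 to 4. It fell by 3.37 log2 units (SE 0.16, limma adjusted p = 5.95e-05), which left 9.66% of the control level. The second KHSRP probe, A_24_P134235, changed by -2.67 (SE 0.47, limma adjusted p = 0.0147). This dimmer probe was above background on 4 control and 0 KHSRP siRNA arrays. Between 45.1% and 49.4% of the 42405 probes were well above background on each array, and no spot was saturated. All 6 squamous epithelial markers (KRT5, KRT14, KRT6A, TP63, SOX2, SFN) were above background on all 8 arrays. None of 5 endothelial markers was above background on any array, 1 of 6 fibroblast markers (COL1A1) and 1 of 5 leukocyte markers (CD68) were so on all 8, and CD3E and PTPRC were so on some arrays. Arrays 1 and 2 of each group lay on 1 slide and arrays 3 and 4 on another, so slide was balanced over the groups.

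The arrays also fell into 2 sets of 4 that crossed the siRNA groups, and this matters for several desmosome genes. Control arrays 1 and 3 with KHSRP siRNA arrays 1 and 4 made up the odd set, and control arrays 2 and 4 with KHSRP siRNA arrays 2 and 3 the even set. The names come from the numbers of the deposited table of processed values, in which the columns of KHSRP siRNA arrays 3 and 4 hold each other's scanner values. With these numbers, arrays of the same number in the 2 groups deviated together from their group means, with correlations over 17229 probes of 0.57, 0.48, 0.86 and 0.86. With the label numbers the correlations were 0.57, 0.48, -0.69 and -0.67. What set the arrays apart is not stated in the sources used here.

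Each result is therefore given from the plain comparison of 4 against 4 arrays and from the same comparison with the number of the processed table as a block, in which each KHSRP siRNA array is set against the control array of the same number. This numbering was picked over the label numbers from the same values that it is used to test. The p-values with the block therefore hold only given that choice. Both used limma, with p-values adjusted over the 18761 tested probes by the Benjamini-Hochberg method, and a probe was called at an adjusted p under 0.05.

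Without the block, none of the 12 desmosome probes was called, against 5.54% of all tested probes (1.92% higher and 3.62% lower). At an unadjusted p under 0.05, 3 of the 12 passed (PKP2, JUP and PERP), against 19.6% of all probes. The values leaned upward in cells with less KHSRP: 11 of the 12 probes and 9 of the 10 genes had a higher mean, and the median change over the 10 genes was 0.26 log2 units against 0.01 over the 12125 tested genes, of which 50.9% had a higher mean. DSG3 was the one gene with a lower mean. With the block, 5 probes were called higher (PKP2, PKP3, PERP, DSC3 and 1 of 2 PKP1 probes), against 14.8% of all probes called higher. DSG3 was called lower, against 15.3% of all probes called lower. Called in either direction were 6 of the 12, where 30.1% of all probes were, and 8 of the 12 had an unadjusted p under 0.05, against 43.4% of all probes.

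**Figure D1:**
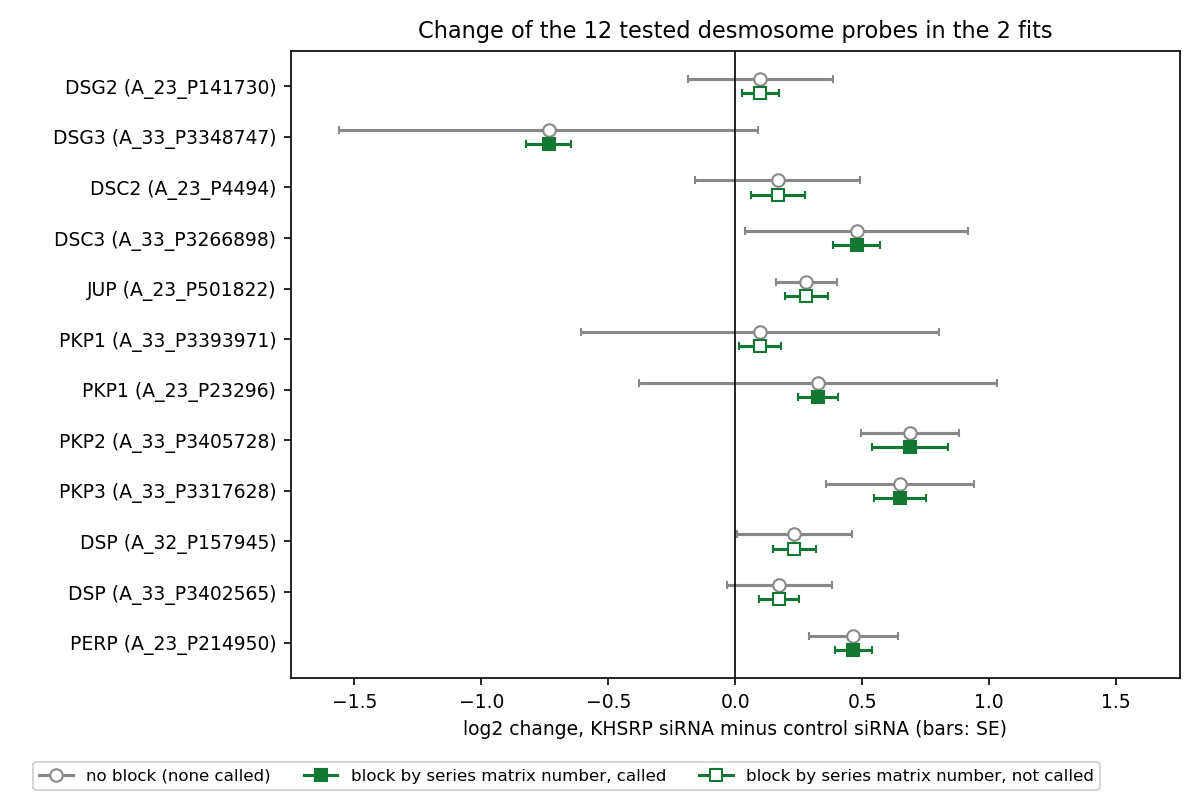
Log2 change (x axis, KHSRP siRNA minus control siRNA) of the 12 tested desmosome probes with its standard error, without a block (grey circles) and with the number of the processed table as a block (green squares, filled where called). The point of each probe is the same in both fits and the bars shrink under the block, most for DSG3 (from 0.83 to 0.09) and the PKP1 probes.

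Among the cadherins, DSG3 fell and DSC3 rose with the block, and the more widely expressed DSG2 and DSC2 were called in neither fit. DSG3, the desmoglein of the lower squamous layers and the main autoantigen of pemphigus vulgaris, read 1.0, -0.68, 1.68 and -1.03 on control arrays 1 to 4 and 0.24, -1.43, -1.96 and 1.18 on KHSRP siRNA arrays 1 to 4. Its high arrays were the 4 of the odd set and its low arrays the 4 of the even set, so that the siRNA groups overlapped widely. The mean was 0.24 ± 1.31 in control and -0.49 ± 1.46 in KHSRP siRNA cells (SD, n = 4), a change of -0.74 (SE 0.83, limma adjusted p = 0.724). Within pairs of arrays of the same number the differences were -0.76, -0.74, -0.50 and -0.94, all in the same direction. With the block DSG3 fell by 0.74 log2 units (SE 0.09, limma adjusted p = 0.00432). The change was -0.75 within slide 1 and -0.72 within slide 2, and with the set of 4 as a block in place of the number the adjusted p was 0.0839. Leaving out 1 array without the block gave -1.29 (without KHSRP siRNA array 4) to -0.25 (without KHSRP siRNA array 3), and normexp background correction gave -0.39.

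DSC3, the desmocollin that partners the desmogleins in the same layers, was measured by 2 probes. Probe A_33_P3266898 read -0.39, -1.28, 0.22 and -1.26 on control arrays 1 to 4 and 0.14, -0.55, -0.99 and 0.62 on KHSRP siRNA arrays 1 to 4. The odd set was again the higher one and the siRNA groups overlapped. Its change was 0.48 (SE 0.44, limma adjusted p = 0.647), and with the block it rose by 0.48 (SE 0.09, limma adjusted p = 0.0155). All 4 pairs were higher after KHSRP siRNA, by 0.27 to 0.72. The change was 0.62 within slide 1 and 0.33 within slide 2. DSC3 was not called with the set as a block (adjusted p = 0.108) or with set and slide as blocks together (adjusted p = 0.0958). Leaving out 1 array without the block gave 0.21 (without KHSRP siRNA array 4) to 0.78 (without control array 3), and normexp background correction gave 0.28. The second DSC3 probe, A_24_P344416, was above background on 2 control and 3 KHSRP siRNA arrays only and was not tested. Its readings ran from -3.57 to -2.17 in control and from -3.73 to -1.18 in KHSRP siRNA cells.

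DSG2, the desmoglein found in nearly all desmosome-bearing tissues, read 0.82, 0.15, 0.85 and 0.04 on control arrays 1 to 4 and 0.97, 0.07, 0.23 and 0.99 on KHSRP siRNA arrays 1 to 4. The groups overlapped, and the 4 highest readings were the odd set. Its change was 0.10 (SE 0.29, limma adjusted p = 0.916; with the block SE 0.07, adjusted p = 0.351). The sign was not settled, since leaving out 1 array at a time gave changes from -0.04 to 0.26, below 0 without control array 2 or 4 or KHSRP siRNA array 1 or 4.

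DSC2, the desmocollin with the widest expression, read -1.32, -0.81, -1.47 and -0.12 on control arrays 1 to 4 and -0.85, -0.68, -0.25 and -1.28 on KHSRP siRNA arrays 1 to 4. It was the one desmosome gene whose 4 highest readings were the even set. Its change was 0.17 (SE 0.33, limma adjusted p = 0.865; with the block SE 0.11, adjusted p = 0.286). Without control array 3 the change was -0.01 and without KHSRP siRNA array 3 it was also -0.01.

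The 4 cadherin genes lie in 1 cluster on chromosome 18 in the RefSeq annotation of GRCh38.p14, in the order DSC3, DSC2, DSC1, DSG1, DSG4, DSG3, DSG2. RefSeq promoters, from 250 bases before to 50 after the transcription start, were held in the table used here for 8 of the 10 genes. The promoters of the neighbours DSG3 (chr18:31447491-31447790, plus strand) and DSG2 (chr18:31497927-31498226, plus strand) are shown because DSG3 was called lower with the block and DSG2 was called in neither fit. Capitals mark matches on either strand to the letters of an AP-1 site (TGANTCA), a GC box (GGGCGG), an E-box (CAGGTG), a Grainyhead site (AACCGGTT) or a TATA box (TATAAA).
DSG3: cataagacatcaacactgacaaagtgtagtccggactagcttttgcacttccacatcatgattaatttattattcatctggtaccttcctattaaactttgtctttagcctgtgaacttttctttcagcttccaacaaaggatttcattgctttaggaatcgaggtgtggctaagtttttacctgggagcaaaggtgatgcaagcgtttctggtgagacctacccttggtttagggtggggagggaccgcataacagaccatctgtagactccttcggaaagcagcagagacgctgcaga
DSG2: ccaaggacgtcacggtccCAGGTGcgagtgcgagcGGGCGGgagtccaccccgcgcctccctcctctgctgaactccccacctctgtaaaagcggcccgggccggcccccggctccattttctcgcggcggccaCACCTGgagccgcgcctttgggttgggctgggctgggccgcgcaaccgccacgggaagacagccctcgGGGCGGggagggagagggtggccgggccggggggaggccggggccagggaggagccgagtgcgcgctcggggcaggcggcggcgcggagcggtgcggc
The DSG3 window held none of these letters. The DSG2 window held 2 GC boxes and 2 E-boxes, which do not overlap. Over the 35116 promoters of the table, a GC box was found in 45% and an E-box in 20.6%. A match is a description of letters and no evidence of a bound factor.

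Whether the partners of each cadherin pair changed unequally was tested on the difference of their log2 levels within each array, by an exact two-sided permutation test of 4 against 4 arrays, for which the smallest possible p is 0.0286. The difference DSG3 minus DSG2 shifted by -0.83 (exact p = 0.286, adjusted over 4 such contrasts 0.571), and within the 4 pairs it shifted by -1.12 to -0.64. The difference DSC3 minus DSC2 shifted by 0.31 (exact p = 0.743, adjusted 0.943), with 0.06 to 0.59 within pairs and a sign that turned to -0.15 without control array 4 and to -0.13 without KHSRP siRNA array 4. All 4 pairs pointed the same way in both contrasts, for which an exact sign-flip test over 4 pairs cannot give a p below 0.125.

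**Figure D2:**
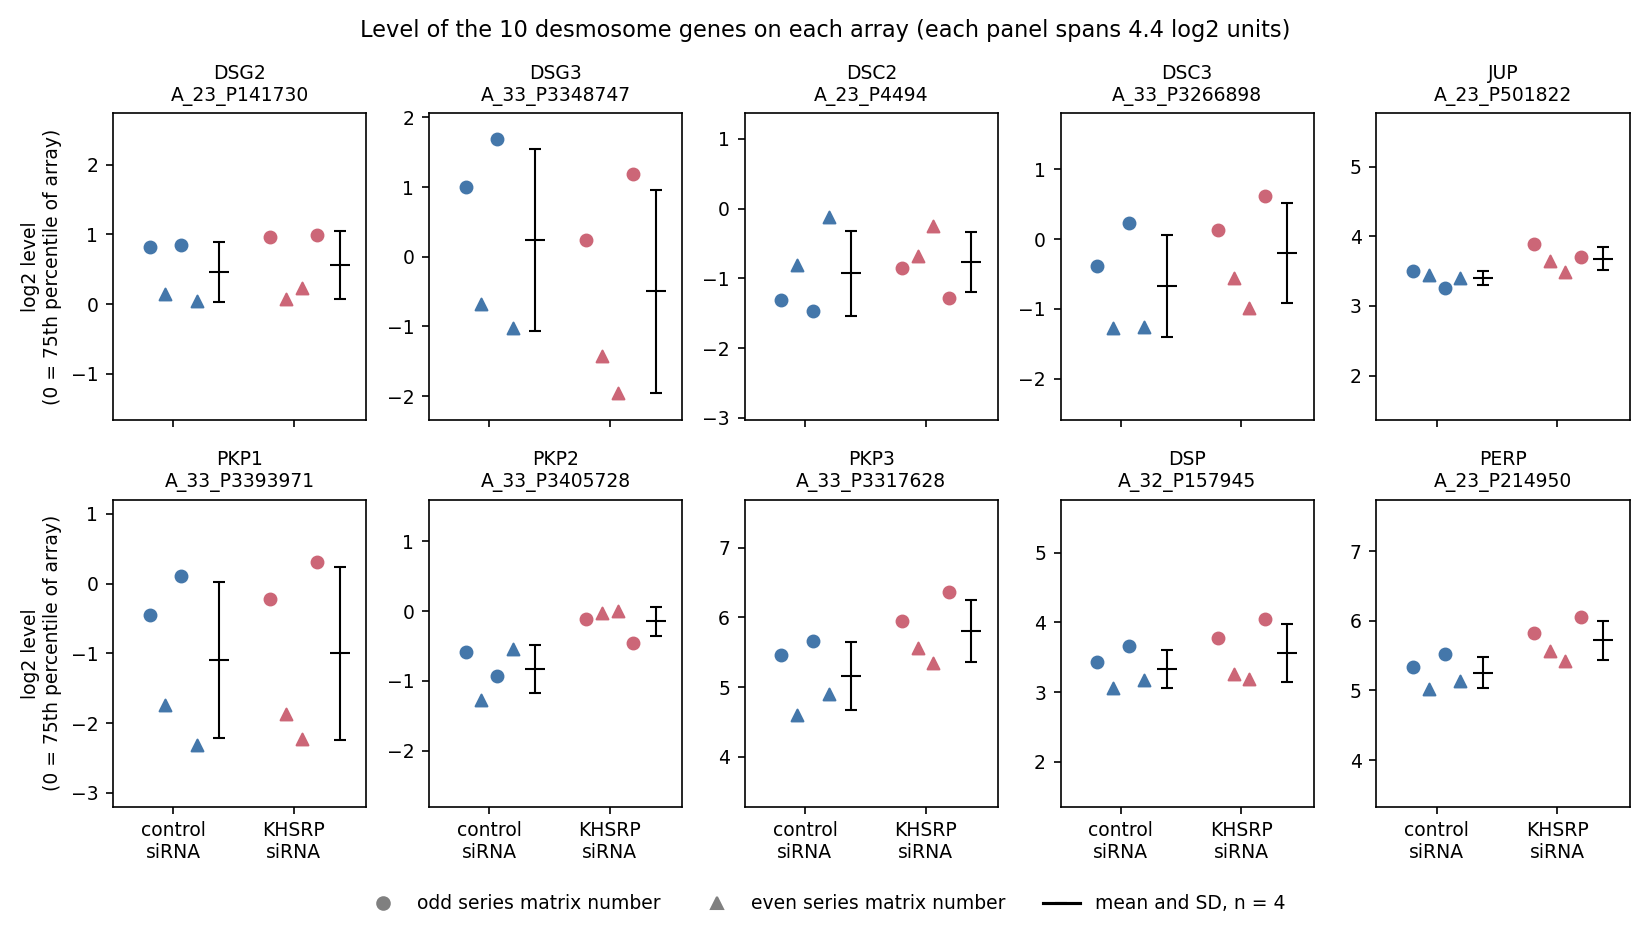
Log2 level (y axis, 0 is the 75th percentile of the array) of the probe that stands for each of the 10 desmosome genes on the 4 control siRNA (blue) and 4 KHSRP siRNA arrays (red), circles for the odd and triangles for the even set, with mean and SD. In DSG3, PKP1 and DSC3 circles and triangles lie far apart within both groups, whereas in PKP2 the 4 red points lie above the 4 blue ones.

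Of the armadillo proteins, PKP2 came nearest to a call without the block. PKP2, the plakophilin of simple epithelia and heart, read -0.58, -1.27, -0.94 and -0.54 on control arrays 1 to 4 and -0.11, -0.02, 0.00 and -0.46 on KHSRP siRNA arrays 1 to 4. Every KHSRP siRNA array was above every control array. The groups did not overlap, counted in either direction, for this 1 of the 12 desmosome probes and for 14.8% of all tested probes. The mean was -0.83 ± 0.34 in control and -0.15 ± 0.21 in KHSRP siRNA cells (SD, n = 4), a change of 0.69 or 1.61-fold (SE 0.19, limma adjusted p = 0.0795). With the block it rose by 0.69 (SE 0.15, limma adjusted p = 0.0219). The 4 pairs differed by 0.48, 1.25, 0.48 and 0.54, and the change was 0.86 within slide 1 and 0.51 within slide 2. Leaving out 1 array at a time kept the change between 0.54 and 0.79, none of them called. Without the block it was smaller with normexp background correction (0.38, adjusted p = 0.0891), and with median scaling it was 0.61 (adjusted p = 0.241).

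PKP3, the plakophilin present in most desmosomes of stratified and simple epithelia, read 5.46, 4.61, 5.66 and 4.90 on control arrays 1 to 4 and 5.95, 5.56, 5.35 and 6.36 on KHSRP siRNA arrays 1 to 4. The groups overlapped, because the even-set KHSRP siRNA arrays reached only the level of the odd-set control arrays. The mean was 5.16 ± 0.49 in control and 5.81 ± 0.45 in KHSRP siRNA cells (SD, n = 4), a change of 0.65 or 1.57-fold (SE 0.29, limma adjusted p = 0.268). With the block PKP3 rose by 0.65 (SE 0.10, limma adjusted p = 0.00888), and all 4 pairs were higher, by 0.45 to 0.95. It was also called with the set of 4 as a block (adjusted p = 0.0142) and with set and slide as blocks together (adjusted p = 0.0100). The change was 0.72 within slide 1 and 0.58 within slide 2.

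JUP, or plakoglobin, which serves desmosomes and adherens junctions alike, read 3.50, 3.44, 3.25 and 3.41 on control arrays 1 to 4 and 3.88, 3.64, 3.49 and 3.70 on KHSRP siRNA arrays 1 to 4. A single reading, KHSRP siRNA array 3, lay within the control range, and the sets were not apart. The mean was 3.40 ± 0.10 in control and 3.68 ± 0.16 in KHSRP siRNA cells (SD, n = 4), a change of 0.28 (SE 0.12, limma adjusted p = 0.248; with the block SE 0.08, adjusted p = 0.0561). All 4 pairs were higher, by 0.08 to 0.45.

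PKP1, the plakophilin of stratified epithelium, was read by 2 probes that told different stories at the threshold. Probe A_33_P3393971 read -0.45, -1.74, 0.11 and -2.31 on control arrays 1 to 4 and -0.22, -1.87, -2.23 and 0.31 on KHSRP siRNA arrays 1 to 4. Its odd-set arrays lay between -0.45 and 0.31 and its even-set arrays between -2.31 and -1.74, so the set rather than the siRNA ordered the readings. Its change was 0.10 (SE 0.70, limma adjusted p = 0.969; with the block SE 0.08, adjusted p = 0.424). Probe A_23_P23296 read from -2.42 to -0.16 in control and from -2.08 to 0.35 in KHSRP siRNA cells, with a change of 0.33 (SE 0.71, limma adjusted p = 0.882), and rose by 0.33 with the block (SE 0.08, limma adjusted p = 0.0310). The difference between the 2 probes shifted by 0.23 (exact p = 0.114, adjusted over 2 probe pairs 0.229). Within the 4 pairs it shifted by 0.06 to 0.31, all in the same direction (exact sign-flip p = 0.125, the smallest 4 pairs allow). With so few arrays these tests do not settle whether the probes disagree. Leaving out 1 array at a time gave -0.34 to 0.51 for the first probe, below 0 without control array 2 or 4 or KHSRP siRNA array 1 or 4. For the second it gave -0.14 to 0.73, below 0 without control array 4 or KHSRP siRNA array 4.

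The plakophilins were set against PKP3 in the same way. The difference PKP1 minus PKP3 shifted by -0.55 (exact p = 0.286, adjusted over 4 contrasts 0.571), with -1.08 to -0.26 within pairs, all 4 in the same direction (exact sign-flip p = 0.125, the smallest 4 pairs allow). The difference PKP2 minus PKP3 shifted by 0.04 (exact p = 0.943, adjusted 0.943), with -0.23 to 0.30 within pairs. Its sign turned without control array 3 (-0.16), KHSRP siRNA array 2 (-0.09) or KHSRP siRNA array 3 (-0.16), and with another background correction (-0.20).

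DSP, the plakin that ties the plaque to keratin filaments, had the same direction in both of its probes and was called in neither fit. Probe A_32_P157945 read 3.43, 3.06, 3.66 and 3.18 on control arrays 1 to 4 and 3.77, 3.25, 3.19 and 4.05 on KHSRP siRNA arrays 1 to 4. Its 4 highest readings were the odd set. Its change was 0.23 (SE 0.23, limma adjusted p = 0.669; with the block SE 0.09, adjusted p = 0.0926), and the pairs differed by 0.01 to 0.39. Probe A_33_P3402565 read from 1.27 to 1.97 in control and from 1.51 to 2.21 in KHSRP siRNA cells, with a change of 0.17 (SE 0.21, limma adjusted p = 0.746; with the block SE 0.08, adjusted p = 0.152). The difference between the probes shifted by -0.06 (exact p = 0.714). Leaving out 1 array gave 0.07 to 0.36 for the first probe and 0.02 to 0.30 for the second, both lowest without KHSRP siRNA array 4.

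PERP, a tetraspan membrane protein of the desmosome and a target of p53 and p63, read 5.33, 5.02, 5.53 and 5.14 on control arrays 1 to 4 and 5.83, 5.57, 5.43 and 6.05 on KHSRP siRNA arrays 1 to 4. A single KHSRP siRNA reading, array 3, lay below the highest control reading, and in each set of 4 both KHSRP siRNA arrays were above both control arrays. The mean was 5.25 ± 0.22 in control and 5.72 ± 0.28 in KHSRP siRNA cells (SD, n = 4), a change of 0.46 or 1.38-fold (SE 0.17, limma adjusted p = 0.179). With the block PERP rose by 0.46 (SE 0.07, limma adjusted p = 0.00881), and all 4 pairs were higher, by 0.29 to 0.56. It was also called with the set of 4 as a block (adjusted p = 0.0188) and with set and slide as blocks together (adjusted p = 0.0133). The change was 0.52 within slide 1 and 0.41 within slide 2.

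The PERP promoter (GRCh38.p14, chr6:138107370-138107669, minus strand) is shown because it was the one of 10 member promoters that held the letters of an AP-1 site, which 7.71% of all 35116 promoters held. Capitals mark that match and 5 GC boxes, 2 of which overlap.
PERP: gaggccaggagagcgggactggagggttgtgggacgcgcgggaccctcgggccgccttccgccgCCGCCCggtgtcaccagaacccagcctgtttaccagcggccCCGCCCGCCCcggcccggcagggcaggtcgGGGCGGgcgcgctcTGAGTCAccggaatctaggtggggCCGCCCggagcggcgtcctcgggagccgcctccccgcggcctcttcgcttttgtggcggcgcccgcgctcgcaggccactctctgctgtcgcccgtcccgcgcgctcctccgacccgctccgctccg
Across the 10 promoters of the 8 genes, 7 held a GC box and 4 an E-box. None held the Grainyhead letters, found in 0.134% of all promoters, or the TATA letters, found in 11.5%.

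**Figure D3:**
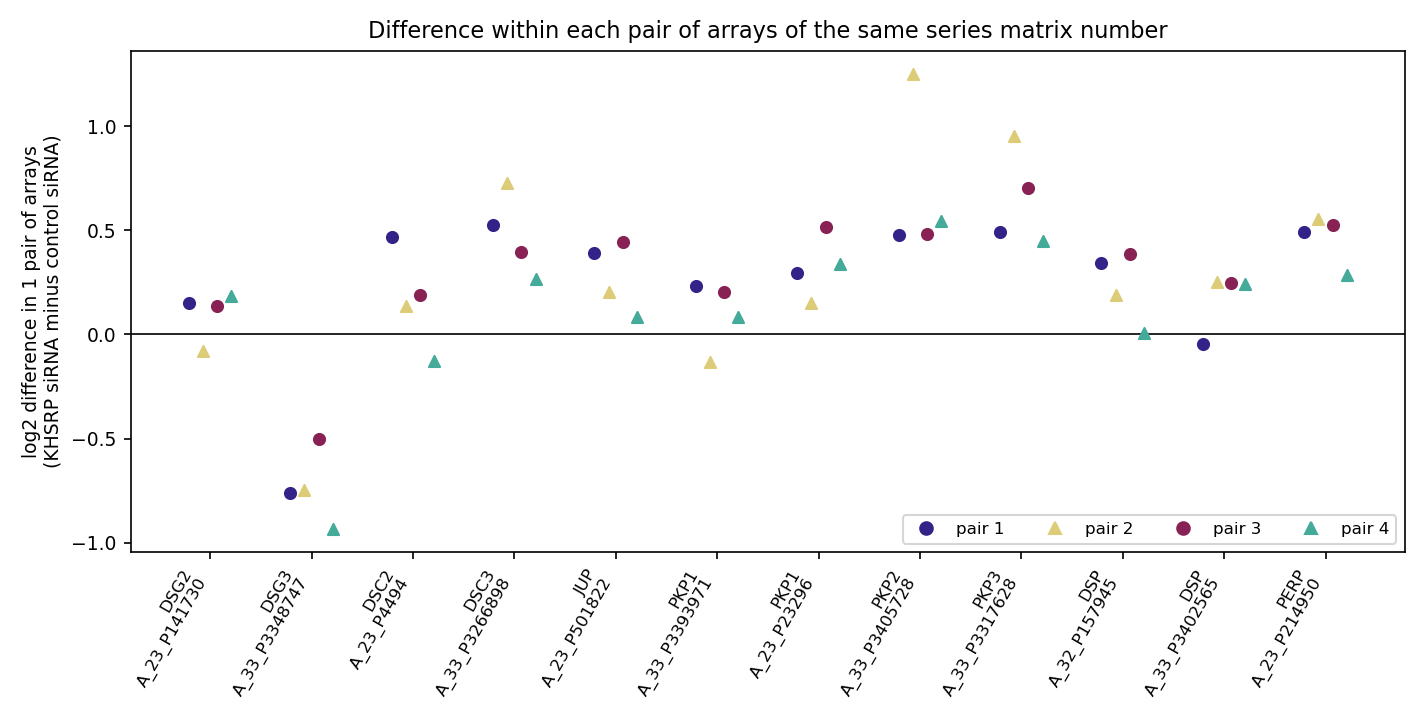
Log2 difference (y axis) between the KHSRP siRNA and the control siRNA array of the same number in the processed table, for the 4 pairs and the 12 tested desmosome probes, circles for odd and triangles for even numbers. All 4 differences of DSG3 lie between -0.94 and -0.50, and all 4 of PKP2, PKP3, PERP and DSC3 lie above 0.

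Counted over the 12 probes, all 4 pairs went the same way in 8, and of all tested probes 50.7% did so. Within slides the change had the same sign on both slides for each of the 12 probes. Within sets it did so for each probe except PKP1 probe A_33_P3393971 (0.22 in the odd and -0.02 in the even set). A difference of the KHSRP siRNA effect between sets or slides was called for none of the 12 (limma interaction terms, lowest adjusted p = 0.994 and lowest unadjusted p = 0.129). This test had 2 arrays of each group in a set or slide and called none of the 18761 probes, so it does not show that the effects were alike. With slide as a block none of the 12 was called (6.23% of all probes were), and PKP2 was the nearest (adjusted p = 0.10). With the label numbers as a block none was called either (0.832% of all probes were). With the set as a block 3 were called higher (PKP2, PKP3 and PERP), where 7.35% of all probes were. With set and slide as blocks together 2 were (PKP3 and PERP), where 10.4% of all probes were, and PKP2 was just past the threshold (adjusted p = 0.0505).

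Several desmosome genes differed more between the sets of arrays than between the siRNA groups. In 8 of the 12 probes the 4 readings of 1 set lay wholly above the 4 of the other, against 25.6% of all tested probes. The odd set was higher in 7 (DSG2, DSG3, DSC3, both DSP and both PKP1 probes), where 11.2% of all probes were. The even set was higher in 1 (DSC2), where 14.4% were. DSG3 averaged 1.34 in odd and -0.85 in even control arrays and 0.71 and -1.69 in the KHSRP siRNA arrays. The odd minus even difference within control and within KHSRP siRNA arrays was 1.85 and 2.09 for PKP1 probe A_33_P3393971, 1.19 and 1.15 for DSC3, and 0.74 and 0.83 for DSG2. DSC2 was 0.93 lower in odd control arrays. The sets were seen in the data and are no group of the study, so these values carry no test.

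Many keratin and hemidesmosome genes split between the sets as well. The odd set lay wholly above the even set in 8 of 13 tested keratins, with KRT19 the one keratin wholly higher in the even set, and in 6 of 9 hemidesmosome and laminin-332 genes. Of all 12125 tested genes 29.1% did not overlap between the sets, 1526 of them higher in the odd and 2001 in the even set. Of 10 adherens junction genes none was wholly higher in the odd and 2 in the even set, and of 10 tight junction genes 2 and 3 were. KRT5 was 2.13 and KRT14 2.06 higher in odd than in even control arrays, and LAMA3, a chain of laminin-332, was 2.59 higher. TP63, the squamous master transcription factor, was 1.86 higher in odd control arrays. The summed log2 level of the 6 squamous markers was 8.89 to 9.23 in the odd and 7.39 to 8.06 in the even set, while between the siRNA groups it overlapped (7.39 to 9.03 in control, 7.62 to 9.23 in KHSRP siRNA cells). The fibroblast markers summed to -1.68 to -1.37 in the odd and -1.11 to -0.71 in the even set, and the leukocyte markers to 1.74 to 2.41 and 0.13 to 1.08. The part of these marker differences in the desmosome values was not tested. In RNA of whole cultures fewer cells of a kind and less RNA per cell cannot be told apart.

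Among other genes known at desmosomes, 2 rose and 1 fell without the block. Of 9 such genes 5 were tested, since DSG1, DSG4, DSC1 and CDSN, which belong to the upper epidermal layers or hair, did not pass the detection filter. PPL, the plakin periplakin, rose by 1.0 (SE 0.19, limma adjusted p = 0.0196) and KAZN, kazrin, a partner of periplakin, rose by 0.80 (SE 0.18, limma adjusted p = 0.0425), with KAZN above background on 3 of 4 control arrays. PNN, pinin, a protein described at desmosomes and in nuclear speckles, fell by 0.92 (SE 0.20, limma adjusted p = 0.0349), and was above background on 3 of 4 KHSRP siRNA arrays. EVPL, envoplakin, changed by 0.20 (adjusted p = 0.523) and PKP4 by 0.02 (adjusted p = 0.985). PPL, KAZN and PNN were also called with the block. These calls were lost easily, since without control array 1, 2 or 4 or KHSRP siRNA array 1 or 2 none of the 5 genes was called. Without control array 3 or KHSRP siRNA array 3, 1 was, without KHSRP siRNA array 4, 2 were, and with the label numbers as a block none was.

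In the neighbouring junctions the calls were few without the block. Of 12 adherens junction genes 10 were tested and none was called. The nearest were CDH3, P-cadherin (0.50, adjusted p = 0.108), and CDH1, E-cadherin (0.55, adjusted p = 0.135). With the block, CDH1 rose by 0.55 (adjusted p = 0.0116) and CDH3 by 0.50 (adjusted p = 0.0254), and CTNND1, NECTIN1 and AFDN rose as well. Of 13 tight junction genes 10 were tested, and TJP1, the scaffold protein ZO-1, fell by 0.81 (SE 0.11, limma adjusted p = 0.00668). With the block CLDN3 fell by 0.98 and CLDN7 rose by 0.56. The median change was 0.24 over the adherens junction genes and -0.18 over the tight junction genes, beside 0.26 over the 10 desmosome genes.

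All 9 hemidesmosome and laminin-332 genes were tested and none was called, the nearest being ITGB4 (0.47, adjusted p = 0.326) and LAMB3 (0.30, adjusted p = 0.838). With the block ITGB4 rose by 0.47 and LAMB3 by 0.30. Of 14 keratins 13 were tested and none was called. With the block KRT6B, a keratin of activated squamous cells, rose by 0.91 (adjusted p = 0.00720) and KRT8, of simple epithelia, fell by 0.39 (adjusted p = 0.0199). Without the block the changes were 0.91 for KRT6B (adjusted p = 0.462) and -0.21 for KRT7 (adjusted p = 0.479), the 2 keratins with the lowest p. Of 17 genes that act on desmosomes (transcription factors, proteases, kinases and others) 14 were tested and none was called. The nearest were ZDHHC5, a palmitoyltransferase (0.46, adjusted p = 0.0691), and ATP2A2, the SERCA2 calcium pump (-0.26, adjusted p = 0.210). With the block ZDHHC5, KLF5 and EGFR rose, and ATP2A2 and ZEB1, a repressor of epithelial genes, fell.

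**Figure D4:**
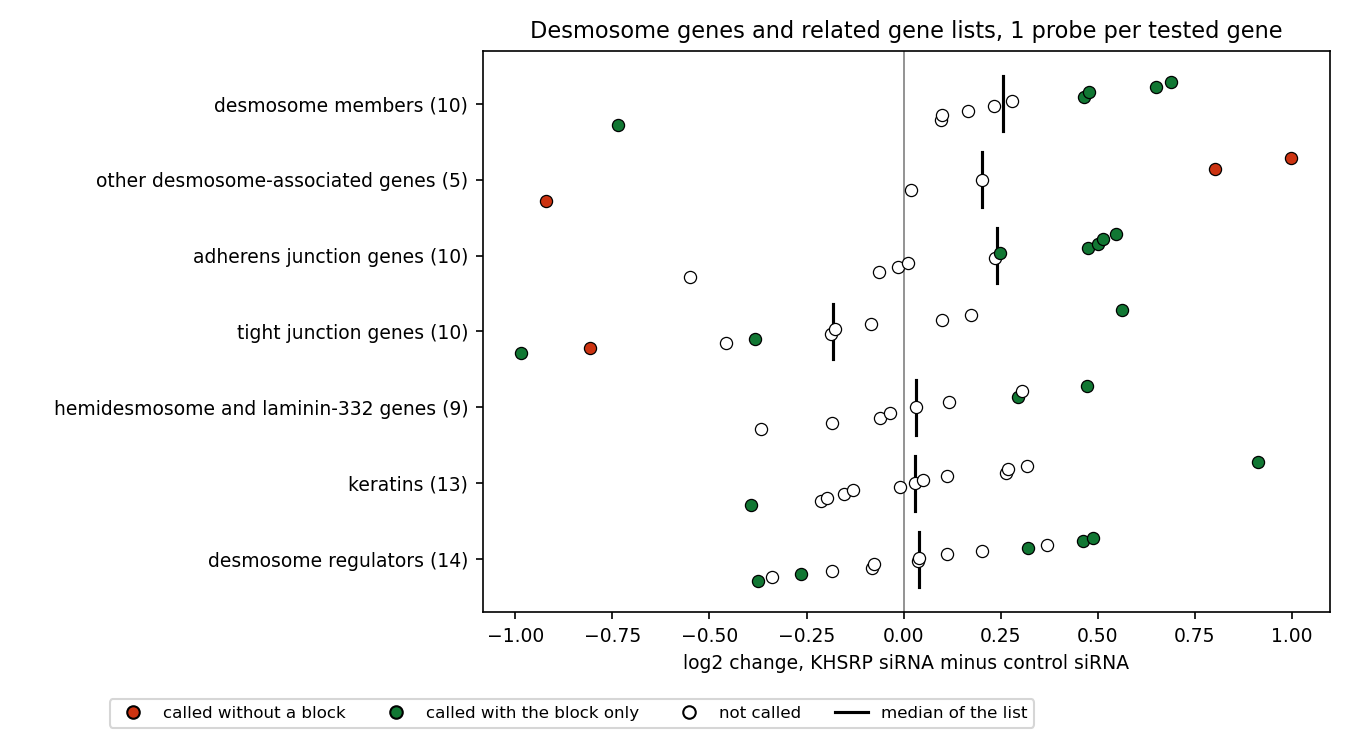
Log2 change (x axis, KHSRP siRNA minus control siRNA) of each tested gene of the desmosome group and of 6 related lists (y axis, number of tested genes in parentheses), red where called without a block, green where called with the block only, white where not called, with the median as a bar. The desmosome median (0.26) is the rightmost, 9 of its 10 points lie above 0, and DSG3 stands alone on the left.

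Read against all genes, 4 desmosome genes were called higher and 1 lower with the block by the probe that stands for each gene (PKP1 by its brighter probe was not), which is 50% of the 10 genes beside 33.0% of the 12125 tested genes. For the other desmosome-associated genes this share was 60% of 5 tested genes, for the adherens junction genes 50%, for the tight junction genes 40%, for the keratins 15.4%, for the hemidesmosome and laminin-332 genes 22.2% and for the regulators 35.7%. These are descriptions of lists and were not tested against each other.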

How the data were processed

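The authors hybridised Cy3-labelled RNA of 4 control siRNA and 4 KHSRP siRNA samples to one-colour Agilent arrays and deposited the scanner output, whose processed intensity per spot was background-subtracted by Feature Extraction 11.5.1.1 per the file headers (12.6 in the submitters' processing notes), and a table of log2 values per probe, used as an alternative. The probe annotation of the headers is hg19. The methods name GeneSpring for the analysis. The methods and the labels name different RNA reagents, and no normalization is described in the sources used here. The median of the deposited log2 columns lies between -0.25 and 0.22, and each column correlates with 1 scanner array at r = 1, so scale and direction are known and the centring is not. The columns of KHSRP siRNA arrays 3 and 4 match each other's scanner files (r = -0.43 with their own).

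Control spots and outlier spots (265 to 346 of 58717 spots per array) were removed. The log2 of the processed intensity was taken for each spot and averaged over the spots of a probe. The 75th percentile of each array (87.7 to 117 in signal) was then subtracted. Probes were named through RefSeq accessions (27241 of 42405 matched, 64.2%, and 1061 RefSeq accessions did not). The detection filter kept a probe when 50% or more of its spots passed the scanner's well-above-background flag on each of the 4 arrays of 1 group. Genes with several such probes are represented by the brightest on average. Tests were limma 3.58.1 in R 4.3.3 (two-sided, Benjamini-Hochberg over 18761 probes) and exact permutation tests in Python 3.11.15 with SciPy 1.17.1. The number of arrays limits the precision. On simulated data for the comparison without a block over 18761 probes, 53 of 100 probes changed by 1 log2 unit were called. Of 100 changed by 2, 87 were called, with 1 false call. The simulated noise was independent between probes and arrays and held no odd and even sets. These counts therefore do not cover the set structure of the real arrays or the fits with a block.

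The genes named were every desmosome probe, KHSRP and, in each related list, the genes called (up to 3) or the 2 with the lowest p; genes called with the block only were added after their values were seen. The genes most like each called desmosome gene were to be named too, and none was called without the block. The markers and the related lists, like the desmosome genes themselves, were chosen with earlier results of these data known. Some genes of these lists are not reported here. Array numbers of the processed table were taken as pairs because every pair's correlation was above 0.1, which the label numbers do not meet. The pairing was thus picked from the expression values themselves, and the p-values with the block depend on it. The array sets were seen in the data, and the first principal component of the deviations within groups without the desmosome probes (67.7% of the variance, 17217 probes) separates them. Alternatives covered scaling, background correction, filter, blocks, weights and leaving out each array.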

Additional observations from a re-analysis of the deposited data

Results flagged for a closer look

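In 3 of 54 groups of 4 readings (the desmosome probes, KHSRP and the named genes of the related lists, by siRNA group), 1 array stood apart from the others, its gap to the nearest reading taking up more of the range of the group than Dixon's critical value allows. Chance alone gives this in about 1 of 20 groups. None of the desmosome probes was among them.

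The second KHSRP probe, A_24_P134235, read -1.86 on control siRNA replicate 2, where the nearest control reading was -1.10 (gap over range 0.832). PNN read -3.67 on KHSRP siRNA replicate 4, where the nearest was -2.94 (gap over range 0.873). TJP1 read 0.90 on KHSRP siRNA replicate 4, where the nearest was 0.71 (gap over range 0.834).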

How the results depend on the processing

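Over 24 alternatives, 8 of which leave out 1 array, the 12 desmosome probes gave 288 values. Direction and side of the threshold were kept in 261, 14 passed the threshold in the same direction, and 13 changed sign, 12 of them on leaving out 1 array. The other was PKP1 probe A_33_P3393971 with array weights (-0.066). No call was made of DSG2, DSC2, DSP or that PKP1 probe under any alternative.

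Called higher were 5 desmosome probes with the replicate block by the numbers of the processed table. With the set block 3 were, and with set and slide blocks 2. The methods' t-test before adjustment called 3 higher (PKP2, PERP and JUP), where 1625 of all 18761 probes were. After adjustment it called 0 of the desmosome probes. Called lower was 1 with the replicate block. The label numbers as a replicate block called 0 of them. Genes called in the related lists, with the replicate block, the set block and both set and slide blocks in turn, were 5, 2 and 3 of the adherens junction, 4, 2 and 2 of the tight junction (0 with label numbers), 2, 1 and 1 of the hemidesmosome, 2, 1 and 1 of the keratin and 5, 1 and 2 of the regulator genes. The other desmosome-associated genes had 0 calls with label numbers. The difference PKP2 minus PKP3 shifted by -0.20 after normexp correction.

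On leaving out 1 array, KHSRP changed by -3.46 to -3.27, DSG3 by -1.29 to -0.25, DSG2 by -0.044 to 0.26, DSC2 by -0.013 to 0.44, PKP1 by -0.34 to 0.51 and -0.14 to 0.73, DSC3 minus DSC2 by -0.15 to 0.79 and PKP2 minus PKP3 by -0.16 to 0.33. The other desmosome-associated genes called were then 0 to 2, against 3. The second KHSRP probe was not called without control array 1 (adjusted p = 0.0550). Nor was it called with the label numbers as a block (adjusted p = 0.0724) or with normexp background correction (-0.54, adjusted p = 0.0928).

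Over all probes 1039 were called (34.6% of them higher). With median scaling 570 were (17.2% higher, median change -0.06 against 0.01), without the filter 319, with the label numbers as a block 156, with the replicate block 5644, with the set 3027, with set and slide 4170, by the unadjusted t-test 3710, and with 1 array left out 491 to 741. The cause of these differences was not tested. Dim probes such as the second DSC3 probe could not be tested.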
